A study of Mus musculus with 95 samples.

Results

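The regions described here were wild-type SUZ12 peaks that shared no base with a wild-type RING1B peak in E14 mouse embryonic stem cells. They were selected on the measured peak calls of both proteins: of 6473 peaks in the authors' wild-type Suz12 list, 1356 (20.9%, 95% Wilson interval 20.0 to 22.0%) overlapped none of the 5454 peaks of the wild-type Ring1b list, and 5117 overlapped at least 1. SUZ12 is a core subunit of Polycomb repressive complex 2 (PRC2), which methylates histone H3 on lysine 27. RING1B is the catalytic subunit of Polycomb repressive complex 1 (PRC1), which ubiquitinates histone H2A to give H2AK119Ub1. In embryonic stem cells both complexes occupy CpG islands of silent developmental genes, and PRC1 complexes differ in which PCGF protein pairs with RING1A or RING1B. H3K27me3 marks PRC2 targets, H3K4me3 marks promoters in CpG islands, and promoters that carry both are called bivalent.

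The groups used were the parental E14 line and clones in which Cas9 had removed PCGF genes: Pcgf1-/-, Pcgf2/4-/-, Pcgf3/5-/-, Pcgf6-/-, Pcgf1/2/4-/- and Pcgf3/5/6-/-, with PCGF4 also known as BMI1. Each knockout genotype came from isolated clones, those lacking several genes by a further round of editing. All lines grew on gelatin in medium with serum, LIF and a pair of inhibitors, against GSK3β and MEK1/2. Further peak lists came from E14 (wild-type) with other antibodies and from Ezh1/2-/- cells. Others came from a Ring1a-/- line with floxed Ring1b and inducible Cre, before and after loss of RING1B (Ring1a-/-_Ring1bfl and Ring1a/b-/-). Knockdown lists held PCGF6 peaks from cells labelled shMGA, shMGAdHLH, shE2F6 and shE2F6-MGAdHLH, and PCGF3 peaks from cells labelled shUsf1 and shUsf2. PCGF6 and PCGF3 each had a control list as well (shCtr). Each ChIP list came from 1 sample, except that Ring1b and H2AK119Ub1 in Pcgf1/2/4-/- had 2, so intervals below cover the counting of peaks and not variation between cultures. All lists held peaks with a MACS −log10 p of at least 10, so a region without a peak is one not called at that threshold. The libraries labelled Pcgf3/5/6-/- retained Pcgf6 mRNA, at 42.02 and 37.2 CPM (counts per 1e+06 counts), against 36.2 and 34.3 in wild-type, and are named here as labelled. Pcgf1 mRNA stood at 4.81 and 3.20 CPM in Pcgf1-/- (66.1 and 61.0 in wild-type) and Pcgf6 mRNA at 0 in Pcgf6-/-. Transcripts of Pcgf2, Bmi1, Pcgf3 and Pcgf5 were still counted in the lines that lack those genes, where a count over the whole gene does not check a small edit.

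Sequences at the summits of 6 of the named tall regions are shown first, since CpG content is the sequence feature compared below. The first 4 lay at promoters of Slc7a14, Osbpl5, Slc5a5 and Sestd1, and the last 2 lay between genes, nearest to Rhbg and C2cd4b. Slc7a14, Osbpl5 and Slc5a5 had H3K27me3 and H3K4me3 there, and the other 3 had H3K4me3 alone. Each is the 150 bases around the summit, from the NCBIM37 (mm9) plus strand, 5′ to 3′, with CG dinucleotides in capitals. The windows are chr3:31208690-31208839 (Slc7a14), chr7:150926051-150926200 (Osbpl5), chr8:73416367-73416516 (Slc5a5), chr2:77118224-77118373 (Sestd1), chr3:88045134-88045283 (Rhbg) and chr9:67547766-67547915 (C2cd4b). The Slc5a5 window lies within coding sequence, the Osbpl5 window holds 26 bases of an annotated exon, and the others hold no annotated exon.
Slc7a14: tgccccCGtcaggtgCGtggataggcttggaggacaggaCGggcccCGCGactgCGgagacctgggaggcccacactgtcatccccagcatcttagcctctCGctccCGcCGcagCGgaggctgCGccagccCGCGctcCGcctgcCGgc
Osbpl5: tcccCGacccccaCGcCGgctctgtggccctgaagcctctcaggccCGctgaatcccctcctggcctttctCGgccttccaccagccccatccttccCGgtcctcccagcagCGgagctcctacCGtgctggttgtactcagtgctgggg
Slc5a5: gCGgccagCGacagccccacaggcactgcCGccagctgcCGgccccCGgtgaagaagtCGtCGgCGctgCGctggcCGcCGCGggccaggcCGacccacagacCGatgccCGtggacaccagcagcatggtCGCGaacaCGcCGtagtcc
Sestd1: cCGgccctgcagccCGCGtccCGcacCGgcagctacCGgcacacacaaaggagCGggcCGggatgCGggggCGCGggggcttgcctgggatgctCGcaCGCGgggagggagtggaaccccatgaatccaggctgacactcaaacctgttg
Rhbg: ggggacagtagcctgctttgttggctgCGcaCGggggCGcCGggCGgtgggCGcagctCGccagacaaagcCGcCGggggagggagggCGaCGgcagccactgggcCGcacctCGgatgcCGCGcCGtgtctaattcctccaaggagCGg
C2cd4b: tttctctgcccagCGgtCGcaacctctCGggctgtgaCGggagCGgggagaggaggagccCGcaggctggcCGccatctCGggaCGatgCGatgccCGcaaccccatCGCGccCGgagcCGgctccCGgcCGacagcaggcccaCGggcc
Between 8 (Osbpl5) and 19 (Slc5a5) CG pairs stood in each window, and the GC content ran from 68.0 to 74.0%.

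Over all 1356 regions, the 300 bases around the summit had a median GC content of 62.7% (quartiles 57.7 and 67.7%) and a median observed-to-expected CpG ratio of 0.66. Of them, 814 (60.0%, 57.4 to 62.6%) were CpG-rich, meaning at least 50% GC and a ratio of at least 0.6, against 78.9% of SUZ12 peaks with RING1B and 48.1% of 300-base windows at 22380 protein-coding starts. In the lowest quintile of SUZ12 height the shares were 52.1% without and 51.4% with RING1B, with overlapping intervals (48.6 to 55.6% and 47.0 to 55.7%). The motif CGCG, searched on both strands, was found in 70.6% of the regions, 82.8% of the SUZ12 peaks with RING1B and 51.5% of protein-coding starts. The GC box GGGCGG was found in 44.5%, 46.7% and 45.7%, and the E-box CACGTG in 5.09%, 6.25% and 7.29%, respectively. The CTCF core motif was present in 3.61% of the regions (2.74 to 4.75%), against 2.44% of SUZ12 peaks with RING1B and 2.44% of protein-coding starts. The REST element was found in 0 of the 1356 windows, with a Wilson upper bound of 0.283%, and in 1 of the 22380 starts. The GA repeat was found in 0.516% and the CA repeat in 1.47% of the windows, against 1.47% and 1.92% of the starts. These matches describe the letters in the window and not binding.

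The regions were low and narrow SUZ12 peaks. The authors' fold enrichment had a median of 5.77 (lowest 1.77, highest 11.9), against 10.3 (3.37 to 39.6) for peaks with RING1B, and the median width was 473 bp against 1108 bp. By quintile of SUZ12 fold, 787 of the regions (58.0%) fell in the lowest, 439 (32.4%) in the second, 123 (9.07%) in the third, 7 (0.516%) in the fourth and 0 in the highest. Read the other way, the share of SUZ12 peaks with RING1B went from 39.2% in the lowest quintile through 66.1%, 90.5% and 99.5% to 100.0% in the highest. These heights come from the list that chose the regions, so they are given without a test.

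**Figure D1:**
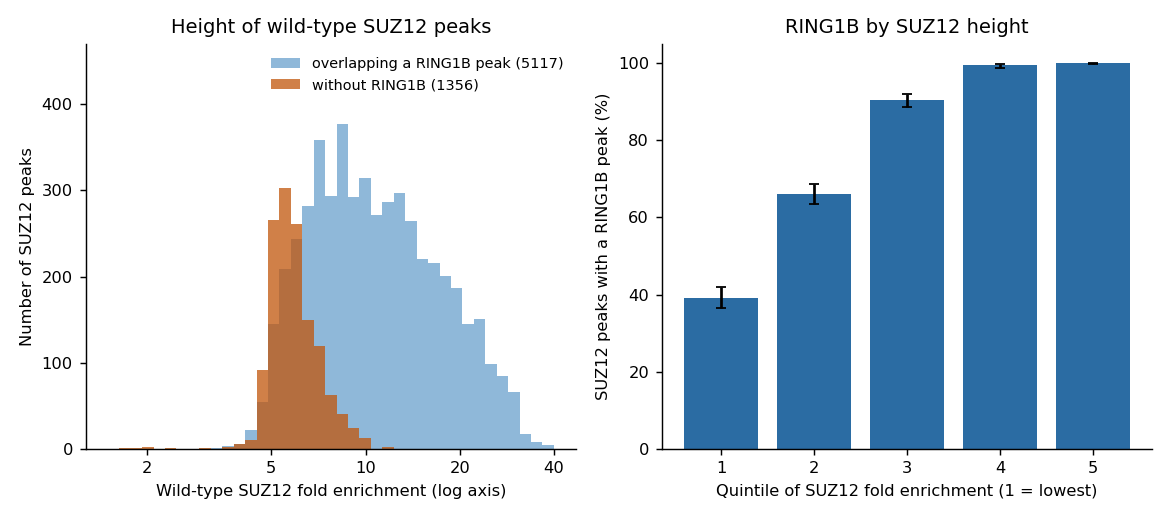
Left, the number of wild-type SUZ12 peaks by the authors' fold enrichment (log axis), for the 1356 peaks without RING1B (orange) and the 5117 with RING1B (blue). Right, the percentage of SUZ12 peaks that overlap a RING1B peak in each quintile of fold, with 95% Wilson intervals, from 39.2% in the lowest to 100.0% in the highest.

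The regions closest to a RING1B peak without touching it were nearest to Wt1 (8 bp away, fold 6.00), Hlx (27 bp, 5.94) and Gpr12 (31 bp, 5.15). Just outside the rule were peaks nearest to Lhx2 (4 bp shared with RING1B, fold 4.62), Scube1 (4 bp, 5.48) and Nkx1-2 (9 bp, 5.40). The median distance to the nearest RING1B peak was 47989 bp: 241 regions (17.8%) lay within 1 kb, 185 (13.6%) at 1 to 10 kb, 419 (30.9%) at 10 to 100 kb and 510 (37.6%) farther away. The remaining region was on the mitochondrial chromosome, which held no RING1B peak. By distance, from within 1 kb to over 100 kb, the share with H3K4me3 was 51.0%, 56.2%, 82.1% and 88.4%, and the share with H3K27me3 was 37.8%, 38.4%, 39.1% and 24.9%. The CpG-rich share was 41.9%, 57.3%, 64.4% and 66.1% over the same classes. Regions far from RING1B were more often at CpG-rich, H3K4me3-marked sequence than regions at its flank, with intervals of the H3K4me3 shares that did not overlap (44.8 to 57.3% within 1 kb, 85.4 to 90.9% over 100 kb).

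By position, 859 summits (63.3%, 60.7 to 65.9%) lay within 2.5 kb of an annotated start, against 74.9% of SUZ12 peaks with RING1B. A further 131 (9.66%) lay in exons, 112 (8.26%) in introns and 254 (18.7%) between genes. In the lowest height quintile the promoter shares were 62.0% (58.6 to 65.3%) without and 71.9% (67.8 to 75.6%) with RING1B.

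The tallest region, with a fold of 11.9, was at chr2:164793324-164794398, 195 bp from the start of Slc12a5 (ENSMUSG00000017740.9), which encodes the neuronal potassium-chloride cotransporter. It carried H3K27me3 and H3K4me3 in wild-type, lay 17278 bp from the nearest RING1B peak and was called in the Suz12 lists of all 6 knockout lines. RING1B was called there in Pcgf2/4-/- and Pcgf6-/-. The region at chr3:31208023-31209213 (fold 10.3), 535 bp from the start of Slc7a14 (ENSMUSG00000069072.3), a transporter-family gene, likewise had both marks and SUZ12 in 6 of 6 lines, and its nearest RING1B peak was 792951 bp away. The region at chr7:150925826-150926666 (fold 10.3), 78 bp from the start of Osbpl5 (ENSMUSG00000037606.10), an oxysterol-binding protein family gene, had both marks and was called in 5 of 6 lines, not in Pcgf3/5/6-/-. The Slc5a5 region (chr8:73415980-73416760, fold 10.1; ENSMUSG00000000792.2, the sodium-iodide symporter) and the Nacc2 region (chr2:25946692-25947689, fold 10.2; ENSMUSG00000026932.8, a BTB-domain transcriptional repressor) also had both marks and were called in 5 lines each. A region in an intron of Celf4 (ENSMUSG00000024268.8, an RNA-binding protein), 74850 bp from its start, was called in all 6 lines and had RING1B in no list. The same held for the region nearest to C2cd4b (ENSMUSG00000091956.1), 59403 bp from its start, which carried H3K4me3 and no H3K27me3.

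Regions with H3K4me3 and no H3K27me3 included those at D3Bwg0562e (ENSMUSG00000044667.8, chr3:117062548-117063635, fold 11.9), Sestd1 (ENSMUSG00000042272.10, chr2:77117899-77118435, fold 10.3) and Ngb (ENSMUSG00000021032.7, neuroglobin, chr12:88442730-88443768, fold 9.82), and the one 13422 bp from the start of Rhbg (ENSMUSG00000001417.4, an ammonium transporter, chr3:88044719-88045656, fold 10.3). SUZ12 was called at Sestd1 in 3 of 6 lines, at D3Bwg0562e and Ngb in 5, with Pcgf3/5/6-/- missing in each, and at the Rhbg region in 6. Among regions with H3K27me3 and SUZ12 in all 6 lines, the next tallest were at the long noncoding RNA gene Gm2115 (ENSMUSG00000085128.1, chr7:91677036-91678183, fold 9.99) and at Zdhhc22 (ENSMUSG00000048483.4, a palmitoyltransferase family gene, chr12:88330613-88331547, fold 9.95).

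In wild-type cells 1022 regions (75.4%, 73.0 to 77.6%) overlapped an H3K4me3 peak and 453 (33.4%, 30.95 to 35.96%) an H3K27me3 peak, against 88.4% and 63.9% of SUZ12 peaks with RING1B. Both marks were called at 312 regions (23.0%), H3K27me3 alone at 141 (10.4%), H3K4me3 alone at 710 (52.4%) and neither at 193 (14.2%). The bivalent share of peaks with RING1B was 56.4%, and their H3K4me3-only share was 32.0%. These contrasts were smaller among peaks of like height. Weighted to the height quintiles of the regions, peaks with RING1B had H3K27me3 at 38.6%, a difference of 5.15 percentage points (95% interval 1.54 to 8.77), and H3K4me3 at 77.0%, a difference of 1.60 points (-1.72 to 4.92). The interval for H3K4me3 includes 0 and allows a difference of up to 4.92 points.

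PRC1 subunits were rarely called at the regions in wild-type. PCGF2, a subunit of canonical PRC1, was called at 22 (1.62%, 1.07 to 2.44%), against 64.1% of peaks with RING1B and 20.0% after weighting to the same heights (difference 18.4 points, 16.3 to 20.4). PCGF1 was called at 0.664% against 11.5%, PCGF6 at 1.99% against 11.2%, and H2AK119Ub1, the product of PRC1, at 42 regions (3.10%) against 17.5%. After weighting, the differences were 1.80 points (0.940 to 2.66), 7.58 (5.78 to 9.38) and 5.03 (3.28 to 6.78). Before weighting, the difference in H2AK119Ub1 was 14.4 points, and it was 4.66 with 500 bp windows and 2.67 with at least 50% of the peak covered. With 50% covered, PCGF1 went from 10.8 to 1.19 points and PCGF6 from 9.17 to 2.672, and each of these intervals excluded 0. At least 1 PCGF protein was called in wild-type at 55 regions (4.06%) and at 67.8% of peaks with RING1B. In lines that lack the protein, PCGF2 was called at 16 regions in Pcgf2/4-/- (1.18%, 0.728 to 1.91%) and PCGF6 at 14 in Pcgf6-/- (1.03%, 0.616 to 1.73%). Both intervals overlapped those in wild-type (PCGF6 1.37 to 2.88%), so the few wild-type calls were near this background. PCGF1 was called at 0 regions in Pcgf1-/-. WDR5, a subunit shared by H3K4 methyltransferases and the PCGF6 complex, was called at 3.91% against 8.75%, and the E-box factor USF1 at 2.88% against 7.04%. H3K36me3, a mark of transcribed gene bodies, was called at 0.885% and 0.782%.

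**Figure D2:**
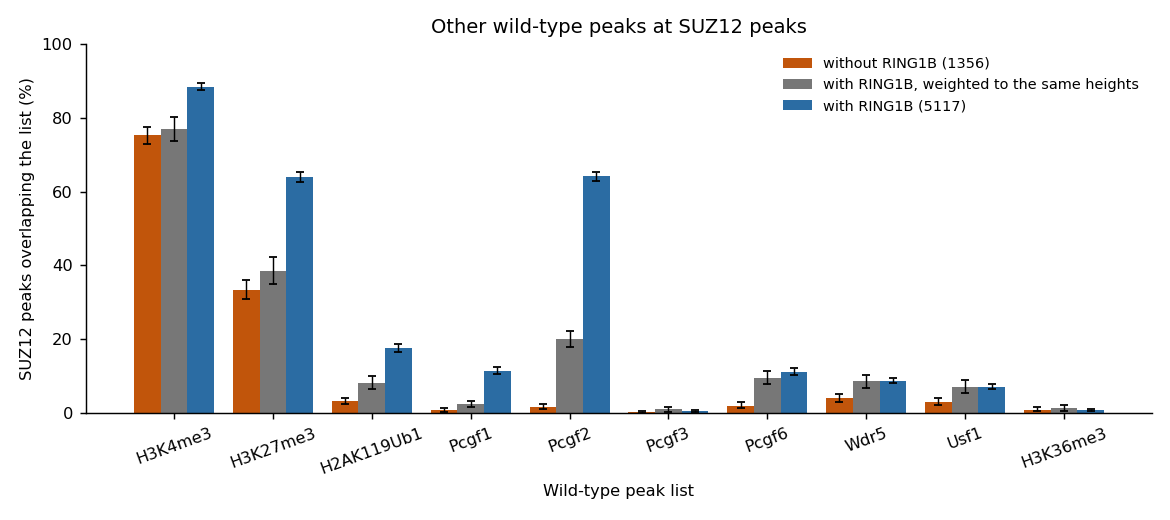
Percentage of SUZ12 peaks that overlap each other wild-type peak list, for peaks without RING1B (orange), with RING1B (blue) and with RING1B weighted to the height quintiles of the orange set (grey). Bars carry 95% intervals for the counting of peaks; PCGF2 is at 1.62%, 20.0% and 64.1% in the orange, grey and blue sets, while H3K4me3 is at 75.4%, 77.0% and 88.4%.

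RING1B was called at 764 of the regions (56.3%, 53.7 to 59.0%) in at least 1 of 7 Ring1b lists from the knockout lines, and in no list at 592 (43.7%). The wild-type share is 0 by the rule, so no other list could show less. The share was 20.9% in Pcgf1-/- (283 regions), 19.2% in Pcgf2/4-/- (261), 17.2% in Pcgf3/5-/- (233) and 31.0% in Pcgf6-/- (420). Peaks with RING1B stood at 84.4%, 71.2%, 84.7% and 81.8% in the same order, and at 98.05% in at least 1 list. Weighted to the heights of the regions, they stood at 65.9%, 41.1%, 64.05% and 62.2%. The regions stood at 1.70% and 1.62% in both Pcgf1/2/4-/- lists and 3.76% in Pcgf3/5/6-/-, against 20.7%, 16.65% and 52.3% of peaks with RING1B. These lists were also the shortest (2051, 1814 and 3068 peaks, against 5563 to 5696 in the others). Including the PCGF lists, 1173 regions (86.5%) overlapped a peak of some RING1B or PCGF list, and 183 (13.5%) of none. This count takes in the knockdown lists and their controls, among them PCGF6 in shCtr (209 regions). It also takes in lists from lines that lack the protein, such as PCGF2 in Pcgf2/4-/- (16 regions) and PCGF6 in Pcgf6-/- (14). Of all the RING1B and PCGF lists, 2 held more than 50% of the regions. PCGF2 in Pcgf6-/- cells was called at 711 regions (52.4%, 49.8 to 55.1%), against 1.62% in wild-type, from lists of 7739 and 4472 peaks. Peaks with RING1B stood at 89.6% in the same Pcgf6-/- list. PCGF1 in Ring1a-/-_Ring1bfl cells was called at 715 of the regions (52.7%), from a list of 12735 peaks, and at 2.14% in Ring1a/b-/-, from 1091. With 1 library per list, the line and the length of its list cannot be told apart.

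Persistence of SUZ12 was read as a peak in the Suz12 list of each knockout line. In Pcgf1-/- 607 regions (44.8%, 42.1 to 47.4%) were called again, against 86.9% of peaks with RING1B and 78.1% of all wild-type SUZ12 peaks. In Pcgf2/4-/- it was 80.7% against 94.8% (all 91.8%), in Pcgf3/5-/- 56.4% against 91.7% (all 84.3%) and in Pcgf6-/- 57.01% against 85.3% (all 79.4%). In Pcgf1/2/4-/- it was 36.9% against 74.3% (all 66.5%), and in Pcgf3/5/6-/- 35.9% against 79.1% (all 70.0%). The Pcgf2/4-/- list, which kept the most regions, was also the longest (8077 peaks, the others 5364 to 6704). With each list cut by −log10 q to the length of the shortest, it held 51.3% of the regions and the other lines held 35.9 to 44.4%. Its difference between peaks with and without RING1B was then 34.6 percentage points in place of 14.1. With knockout peaks at a −log10 q of at least 20, a threshold chosen after seeing the data, the regions were called again at 3.47% (Pcgf1/2/4-/-) to 31.5% (Pcgf2/4-/-). The difference in Pcgf2/4-/- was 43.5 points. Both cuts drop the weaker knockout peaks, and the regions were weak in wild-type already (median −log10 q 9.935, against 28.97 with RING1B). The part of peak strength in these wider differences was not tested. SUZ12 was called in all 6 lines at 127 regions (9.37%) and in none at 76 (5.60%), against 57.5% and 0.547% of peaks with RING1B.

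The gap was narrower among peaks of like height. With peaks that have RING1B weighted to the height quintiles of the regions, they were called again more often by 18.6 percentage points in Pcgf1-/- (95% interval 14.9 to 22.3), 15.4 in Pcgf3/5-/- (11.8 to 19.0), 17.1 in Pcgf3/5/6-/- (13.4 to 20.8), 8.06 in Pcgf6-/- (4.35 to 11.8) and 3.81 in Pcgf1/2/4-/- (0.253 to 7.37). In Pcgf1/2/4-/- the interval includes 0 when 500 bp windows around the summits are used as well (2.83 points, -0.754 to 6.42). In Pcgf2/4-/- the difference was 0.60 points (-2.49 to 3.69) and was not distinguishable from 0, against 14.1 points unweighted. In the lowest quintile alone, 32.5% of regions and 56.5% of peaks with RING1B were called again in Pcgf1-/-, 44.2% and 62.8% in Pcgf3/5-/-, and 29.4% and 48.0% in Pcgf3/5/6-/-. In the third quintile the 123 regions were called again at 82.1% in Pcgf1-/- and 97.6% in Pcgf2/4-/-, against 87.3% and 96.6%.

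**Figure D3:**
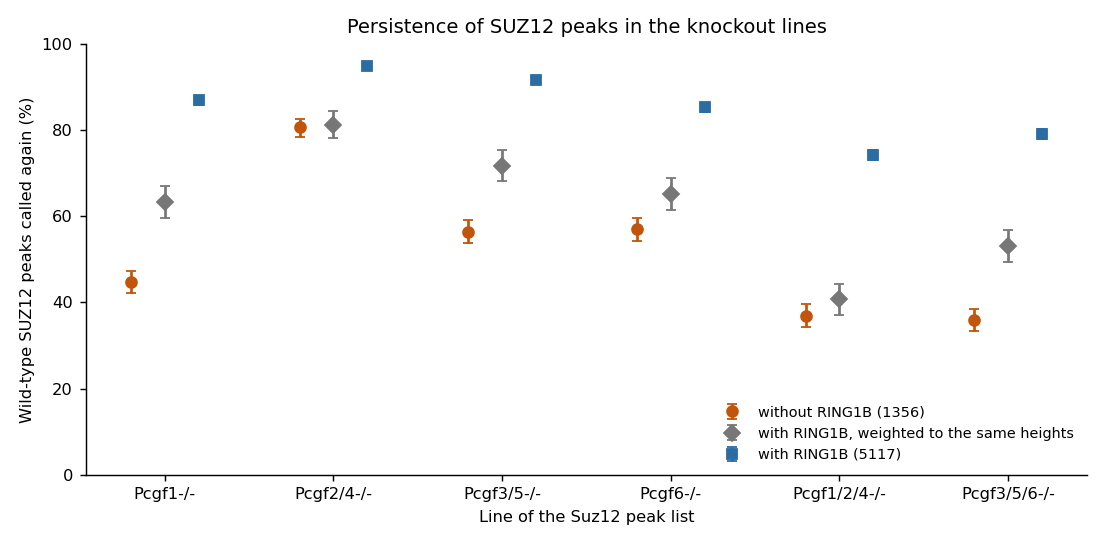
Percentage of wild-type SUZ12 peaks called again in the Suz12 list of each knockout line, for peaks without RING1B (orange circles), with RING1B (blue squares) and with RING1B weighted to the heights of the orange set (grey diamonds), with 95% intervals for the counting of peaks. Grey and orange lie 18.6 points apart in Pcgf1-/- and 0.60 points apart in Pcgf2/4-/-.

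Regions with no RING1B in any list had lower shares called again than the 764 with RING1B in another line, a split that uses the same lines: 35.5% (31.7 to 39.4%) against 52.0% (48.4 to 55.5%) in Pcgf1-/-, 44.1% against 67.0% in Pcgf6-/- and 24.7% against 44.6% in Pcgf3/5/6-/-. Their wild-type H3K27me3 shares were 33.5% (29.8 to 37.3%) and 33.4% (30.1 to 36.8%), and their median folds 5.65 and 5.82. In Pcgf2/4-/- the shares called again were 77.9% and 82.9%, and their intervals overlapped (74.4 to 81.0% and 80.02 to 85.4%).

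Persistence varied with the wild-type marks at a region. In Pcgf6-/- cells SUZ12 was called again at 75.6% of bivalent regions, 71.6% of those with H3K27me3 alone, 62.7% of those with neither mark and 44.4% of those with H3K4me3 alone (40.8 to 48.0%). In Pcgf2/4-/- the order was otherwise: 91.0%, 70.9%, 56.99% and 84.5% (81.7 to 87.0%). In Pcgf3/5-/- the shares were 77.2%, 51.1%, 33.7% and 54.5%, and in Pcgf1-/- 59.0%, 34.04%, 27.5% and 45.4%. Bivalent regions had the highest share in each of the 6 Suz12 lists, including 56.4% in Pcgf1/2/4-/- and 46.5% in Pcgf3/5/6-/-. Their interval overlapped that of regions with H3K27me3 alone in Pcgf6-/- (70.6 to 80.1% and 63.7 to 78.4%) and in Pcgf3/5/6-/- (41.0 to 52.0% and 36.05 to 52.2%), where it also overlapped that of regions with neither mark (31.8 to 45.4%). They were also the tallest, with a median fold of 6.18 and 40.4% in the lowest quintile, against 5.65 and 67.4% (H3K27me3 alone), 5.68 and 60.6% (H3K4me3 alone) and 5.47 and 70.5% (neither). The part of height in these differences was not tested.

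RING1B in the knockout lines also varied with the marks. In Pcgf2/4-/- it was called at 26.5% of regions with H3K4me3 alone (23.4 to 29.8%) and at 19.9% of bivalent regions, but at 2.13% (0.726 to 6.07%) of those with H3K27me3 alone and 4.15% of those with neither. In Pcgf6-/- the order was inverted: 44.7% (36.7 to 52.9%) with H3K27me3 alone, 42.0% with neither, 33.0% bivalent and 24.4% (21.4 to 27.7%) with H3K4me3 alone. In Pcgf1-/- and Pcgf3/5-/- the 4 classes lay between 15.5% and 22.8%. Regions with H3K27me3 alone and with neither mark were close to wild-type RING1B peaks, at medians of 2047 and 4423 bp, while bivalent and H3K4me3-only regions were at 43300 and 95394 bp. They were also CpG-rich less often (34.0% and 36.8%, against 63.1% and 70.1%). Among CpG-rich regions RING1B was called at 26.9% (23.97 to 30.0%) in Pcgf2/4-/-, and among the others at 7.75%.

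**Figure D4:**
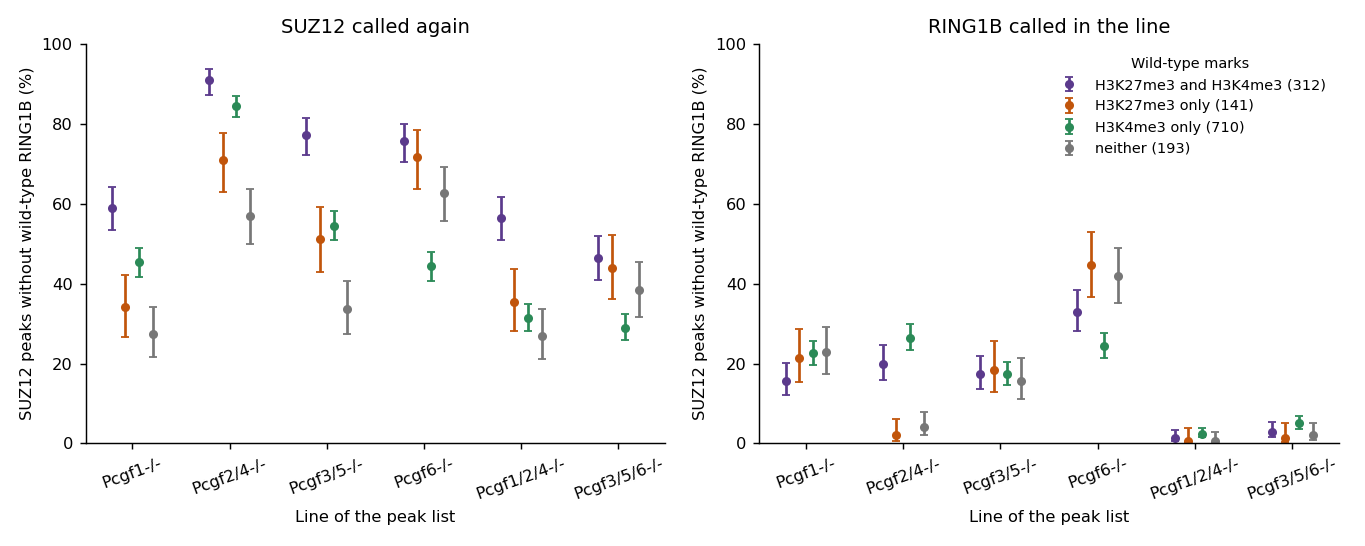
Percentage of the SUZ12 peaks without wild-type RING1B at which SUZ12 (left) or RING1B (right) was called in each knockout line, by the wild-type histone marks at the peak, with 95% Wilson intervals. Regions with H3K4me3 alone (green) are at 84.5% for SUZ12 in Pcgf2/4-/- and 44.4% in Pcgf6-/-, and those with H3K27me3 alone (orange) are at 2.13% for RING1B in Pcgf2/4-/- and 44.7% in Pcgf6-/-.

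H3K27me3 was called at different shares of the regions across lines, from lists of unequal length. The share was 33.4% in wild-type (8063 peaks), 64.4% in Pcgf1-/- (20147), 92.6% in Pcgf2/4-/- (112110), 65.4% in Pcgf3/5-/- (21239), 30.9% in Pcgf6-/- (13041), 56.9% in Pcgf3/5/6-/- (14126) and 5.97% in Pcgf1/2/4-/- (3918). Peaks with RING1B stood at 63.9%, 84.7%, 97.05%, 87.4%, 56.2%, 81.2% and 23.1% in the same order. H2AK119Ub1 was called at 3.10% in wild-type (1741 peaks), 11.4% in Pcgf1-/- (10882), 75.9% in Pcgf2/4-/- (121944), 96.5% in Pcgf3/5-/- (128786), 11.9% in Pcgf6-/- (5287), 60.2% in Pcgf3/5/6-/- (14353) and 0.664% and 0.295% in the Pcgf1/2/4-/- lists (2202 and 1070). Peaks with RING1B stood at 17.5%, 36.8%, 86.8%, 98.96%, 29.0%, 86.95%, 5.18% and 2.97%, so the high shares were not particular to the regions. The H3K27me3 and H2AK119Ub1 lists differ in length by over an order of magnitude, so the shares are given as values without a comparison between lines. H3K4me3 was called at 75.4% in wild-type, 74.1% in Pcgf1-/-, 75.1% in Pcgf2/4-/-, 67.0% in Pcgf3/5-/- and 85.2% in Pcgf6-/-, from lists of 40094 to 47619 peaks. For peaks with RING1B the shares were 88.45%, 87.6%, 87.8%, 83.8% and 92.9%.

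A region lay within 2.5 kb of a start of 914 genes. At 639 of these genes, 608 of them protein-coding, no RING1B peak lay within that distance, and these are called member genes here. Developmental transcription factors, the classic Polycomb targets, made up 4 of 605 symbols of protein-coding member genes (0.661%, 0.257 to 1.69%): Foxo1, Hoxc4, Meis3 and Neurod1. They made up 223 of 3050 (7.31%) for genes with SUZ12 and RING1B, and 1.17% of all protein-coding genes. Ion channels and transporters, such as Grin1 and Gria2 (glutamate receptor subunits) and Kcnj11 (a potassium channel), came to 36 (5.95%), against 5.90% with RING1B and 2.70% of all genes. Adhesion molecules and protocadherins, among them Celsr3, Nlgn2 and Pcdhb5, came to 17 (2.81%), against 1.93% and 0.791%. Signalling ligands, receptors and antagonists, among them Dll3, Notch2 and Dkk3, came to 10 (1.65%), against 4.03% and 0.904%. Of the polycomb genes, 1 of 42 was a member gene, Phc2, which encodes a PRC1 subunit (0.165% of the 605 symbols, against 0.189% of all genes). Members were 0 of 17 pluripotency genes, 0 of 20 germline genes and 0 of 67 histone genes. The Wilson upper bound for 0 of 605 is 0.631%, above the shares of all genes (0.076%, 0.090% and 0.301%). These counts therefore show no depletion. Genes with SUZ12 and RING1B held 11 polycomb, 1 pluripotency, 7 germline and 3 histone genes among 3050.

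Expression was read from 14 RNA-seq libraries with 2147968 to 7848161 counts each. Symbols matched for 579 member genes, and 448 of these passed the filter on low counts, among 15464 genes tested. The 2 wild-type libraries differed by less than the sampling noise (chi-square per degree of freedom 0.944 over 13204 genes with a summed count of at least 20, p = 1.00), while every other pair differed by more (1.19 to 22.8, p of 4.98e-49 or less). They were counted as 1 sample by summing their counts, and nothing in the labels says that the paired libraries came from separate cultures. All 10 markers of embryonic stem cells were detected in every group, at a summed level of 1902 to 3892 CPM. In wild-type, markers of primitive endoderm summed to 3.09 to 3.57 CPM, with Gata6, Gata4, Sox17 and Dab2 at 0. In bulk RNA, fewer cells that express a gene and less RNA per cell cannot be told apart.

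Member genes were expressed at a low level in wild-type. Their median was 0.642 CPM per kb of exon (quartiles 0.0476 and 2.88, with medians of 0.664 and 0.653 in the separate libraries), against 0.271 for genes with SUZ12 and RING1B and 1.84 for all matched genes. At least 1 CPM per kb was reached by 257 of the 579 (44.4%), by 30.6% of genes with RING1B and by 55.0% of all matched genes. By the marks at the region, the median was 0.988 for the 393 member genes with H3K4me3 alone, 0.372 for the 151 bivalent ones, 0.0335 for the 24 with neither mark and 0.0175 for the 11 with H3K27me3 alone.

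Against wild-type, the member genes that rose came to 218 of 448 (48.7%) in Pcgf3/5/6-/-, where 24.6% of all tested genes rose, and 56 (12.5%) fell, where 21.2% of all genes did (edgeR quasi-likelihood test, Benjamini-Hochberg adjusted p below 0.05). In Pcgf6-/- 167 (37.3%) rose against 24.2% of all genes, and 66 (14.7%) fell against 14.4%. In Pcgf1-/- 84 (18.8%) rose against 9.84%, and 55 (12.3%) fell against 13.0%. In Pcgf3/5-/- 71 (15.8%) rose against 7.81%, and 25 (5.58%) fell against 6.14%. In Pcgf2/4-/- 28 (6.25%) rose against 5.19%, and 70 (15.6%) fell against 9.50%. In Pcgf1/2/4-/- 39 (8.71%) rose against 8.21%, and 68 (15.2%) fell against 16.8%, both near the shares of all genes in this fit. With only the compared groups in the fit, the share of tested member genes called in either direction went from 23.9 to 50.9% in Pcgf1/2/4-/-, 31.0 to 19.1% in Pcgf1-/-, 21.9 to 10% in Pcgf2/4-/- and 21.4 to 35% in Pcgf3/5-/-. The number called over all genes moved the same way, from 3862 to 7767 in Pcgf1/2/4-/- and 3526 to 1502 in Pcgf1-/-. It went from 2272 to 563 in Pcgf2/4-/- and 2156 to 2869 in Pcgf3/5-/-, so these moves were not particular to member genes. Genes with SUZ12 and RING1B rose at 55.3% in Pcgf3/5/6-/-, 43.4% in Pcgf6-/-, 17.9% in Pcgf1-/- and 14.8% in Pcgf3/5-/-. All comparisons share the wild-type libraries. Markers of other cell types differed in the same libraries. In Pcgf3/5/6-/- the 5 trophoblast markers summed to 436 to 445 CPM (92.3 to 95.6 in wild-type), the 6 primitive endoderm markers to 56.6 to 65.2 (3.09 to 3.57), the 6 fibroblast markers to 35.8 to 38.55 (10.8 to 15.0, with Postn and Dcn at 0) and the 4 neural markers to 195 to 198 (87.2 to 87.6). Most of the neural sum was Tubb3, itself a member gene, at 169 and 171 CPM (80.9 and 83.5 in wild-type). The neural marker Sox1 and the fibroblast marker Lum were at 0 in Pcgf3/5/6-/- and detected in wild-type. The 4 mesoderm markers went down, to 14.9 to 18.0 CPM from 49.4 to 55.7. In Pcgf6-/- primitive endoderm markers summed to 48.1 to 55.0 CPM and fibroblast markers to 27.3 to 30.4, while the 4 mesoderm markers stood at 8.59 to 8.89 against 49.4 to 55.7 in wild-type. The trophoblast markers also summed lower there, to 63.3 to 69.2 CPM, and the neural markers to 76.3 to 88.8, with Sox1 at 0. Their part in the counts of member genes was not tested.

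The median log2 fold change of the member genes tested was 0.76 in Pcgf3/5/6-/- (all tested genes 0.05), 0.38 in Pcgf6-/- (0.03), 0.14 in Pcgf3/5-/- (0.00), 0.08 in Pcgf1-/- (-0.05), -0.15 in Pcgf1/2/4-/- (-0.11) and -0.33 in Pcgf2/4-/- (0.00). The 2 Pcgf2/4-/- libraries differed in depth and level. The second library, with 7547984 counts against 2764111, read a median of 0.43 higher on the log2 scale over member genes and 0.20 higher over all genes. A larger share of the called member genes fell without the second Pcgf2/4-/- library than without the first, and falls outnumbered rises either way. Fewer member genes were called without Pcgf1-/- replicate 1, Pcgf3/5-/- replicate 1 or either Pcgf1/2/4-/- replicate. Fewer genes over all were called in the same fits. Each such fit leaves 1 library in the knockout group, so no counts are given. By mark, 61 of 113 tested bivalent member genes (54.0%) and 149 of 321 with H3K4me3 alone (46.4%) rose in Pcgf3/5/6-/-, against 24.6% of all tested genes. In Pcgf1/2/4-/- 8 of the bivalent genes (7.08%) and 60 of those with H3K4me3 alone (18.7%) fell, against 16.8% of all tested genes. The share with H3K4me3 alone was thus near that of all genes.

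**Figure D5:**
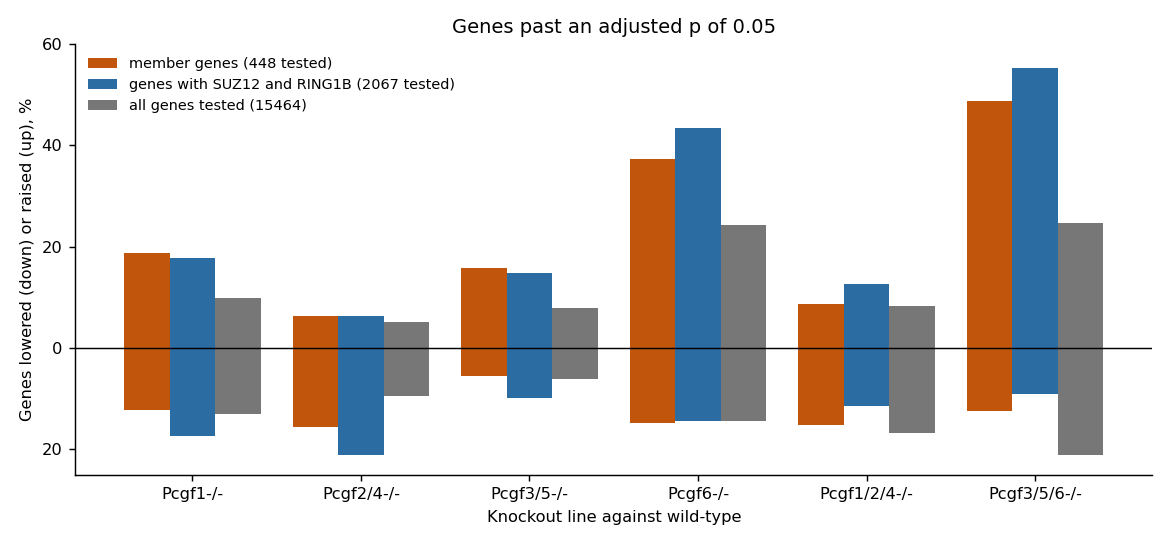
Percentage of genes raised (up) or lowered (down) against wild-type at an adjusted p below 0.05, for member genes (orange), genes with SUZ12 and RING1B at the promoter (blue) and all genes tested (grey). Member genes reach 48.7% raised in Pcgf3/5/6-/-, where all genes reach 24.6%, and 8.71% in Pcgf1/2/4-/-, where all genes reach 8.21%.

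Of the named member genes, Krt19, which encodes a keratin of simple epithelia and had both marks, had the largest fitted change. Its level was 4.57 and 3.52 CPM in wild-type, 275 and 290 in Pcgf3/5/6-/- and 14.4 and 23.9 in Pcgf1/2/4-/-. The log2 fold changes were 6.12 (SE 0.26, edgeR adjusted p = 8.79e-09) and 2.26 (SE 0.30, edgeR adjusted p = 0.00020). Krt19 also rose in Pcgf6-/-, to 35.5 and 32.2 CPM (3.06, edgeR adjusted p = 9.57e-07). It passed the threshold in Pcgf2/4-/- (1.265) and Pcgf3/5-/- (1.23) as well, and not in Pcgf1-/- (-0.952). The Pcgf3/5/6-/- and Pcgf1/2/4-/- libraries were all above both wild-type libraries, which the choice of named genes required. The part of the trophoblast and primitive endoderm markers, given above for Pcgf3/5/6-/-, was not tested. Crispld2, a secreted-protein gene, went from 0.713 and 0.563 to 28.1 and 25.01 CPM in Pcgf3/5/6-/- (log2 fold change 5.33, edgeR adjusted p = 4.72e-07), and Car12, a carbonic anhydrase, from 0.9988 and 0.985 to 26.2 and 29.7 (4.79, edgeR adjusted p = 4.17e-06). In the other direction, Ppm1n, a protein phosphatase family gene, went from 24.7 and 28.4 to 3.79 and 2.03 CPM in that line (-3.17, edgeR adjusted p = 2.57e-05).

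In Pcgf6-/- the named member gene with the largest rise was Ngb, with its region at the promoter. It had 0.856 and 0.422 CPM in wild-type, against 16.6 and 17.3 in Pcgf6-/- (log2 fold change 4.68, SE 0.44, edgeR adjusted p = 9.54e-06). It had 9.79 and 5.07 CPM in Pcgf3/5/6-/- and at most 0.656 CPM in the other lines. RING1B was called at its region in Pcgf6-/- cells and SUZ12 was as well. Hfm1, a meiotic helicase gene, had 1.14 and 0.703 CPM in wild-type and 19.9 and 17.9 in Pcgf6-/- (4.33, edgeR adjusted p = 1.92e-06), and Lama4, a laminin chain, had 2.00 and 1.41 against 24.5 and 26.0 (3.88, edgeR adjusted p = 8.88e-07). Dhrs3, which reduces retinal, fell from 27.5 and 26.9 to 2.12 and 2.60 CPM (-3.53, edgeR adjusted p = 3.12e-07).

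Osbpl5, at one of the tallest regions, rose in both lines without PCGF3 and PCGF5. It had 2.28 and 2.39 CPM in wild-type, 21.3 and 19.8 in Pcgf3/5-/- (log2 fold change 3.12, SE 0.39, edgeR adjusted p = 0.00020) and 26.2 and 23.0 in Pcgf3/5/6-/- (3.38, SE 0.40, edgeR adjusted p = 2.08e-05). In Pcgf6-/- it had 4.61 and 3.68 CPM and did not pass the threshold (edgeR adjusted p = 0.154). SUZ12 was called at its region in Pcgf3/5-/- and not in Pcgf3/5/6-/-. Tmc7 and Plau (the urokinase gene) also rose in Pcgf3/5-/-, from 1.71 and 1.41 to 15.8 and 14.6 CPM and from 1.14 and 1.41 to 13.0 and 9.01 CPM (edgeR log2 fold changes 3.27 and 3.11). Neither rise was particular to that line. Tmc7 also passed the threshold in Pcgf1-/- (2.31), Pcgf2/4-/- (2.20), Pcgf6-/- (2.63) and Pcgf3/5/6-/- (1.86). Plau did so in Pcgf1-/- (2.21), Pcgf6-/- (3.21) and Pcgf3/5/6-/- (3.655). Slc5a5 had 1.14 and 2.53 CPM in wild-type and 18.3 and 18.9 in Pcgf3/5/6-/- (3.32, SE 0.33, edgeR adjusted p = 5.71e-06), and it also rose in Pcgf6-/- and Pcgf1/2/4-/-, to 4.11 and 3.37 CPM and to 7.48 and 5.87 CPM (edgeR adjusted p = 0.0386 and 0.00675). Slc7a14 passed the threshold in 0 of the 6 comparisons, with 17.2 to 18.5 CPM in wild-type and 14.7 to 34.8 in the knockouts, the Pcgf2/4-/- pair reading 34.4 and 14.7. Gm2115 was at 0 counts in all 14 libraries, Zdhhc22 had at most 0.153 CPM, and C2cd4b at most 1.35 CPM. Slc12a5 had 1 count in 1 wild-type library and 0 in the other (0.143 and 0 CPM) and at most 2.30 CPM in the knockouts, and passed the threshold in 5 of 6 comparisons (edgeR), not in Pcgf1/2/4-/-. A fold is not given for so low a count. The Slc12a5 region lay 195 bp from a start. The gene was still not a member gene, since those have no wild-type RING1B peak within 2.5 kb of a start.

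Of the genes nearest to the tall regions away from promoters, Celf4 went from 59.9 and 62.7 CPM in wild-type to 10.46 and 10.9 in Pcgf6-/- (log2 fold change -2.52, SE 0.14, edgeR adjusted p = 5.37e-08). It also fell in Pcgf1/2/4-/- (-1.56) and Pcgf3/5/6-/- (-1.32), with the edgeR test. Rhbg went from 65.2 and 65.8 to 18.4 and 13.3 CPM in Pcgf6-/- (-2.03, SE 0.24, edgeR adjusted p = 2.01e-05). Sestd1, with its region at the promoter, rose from 11.7 and 11.5 to 23.8 and 23.0 CPM there (1.01, edgeR adjusted p = 0.00359). SUZ12 was called at the Celf4 and Rhbg regions in Pcgf6-/-, and not at Sestd1. Nacc2 has its region at the promoter and, like Slc12a5, was not a member gene. It rose in Pcgf1-/- (1.35) and Pcgf3/5/6-/- (1.33), from 4.28 and 5.20 CPM to 12.5 and 11.7 and to 10.7 and 13.2 (edgeR adjusted p = 0.00351 and 0.00246).

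Member genes that fell in more than 1 line included Dkk3, Cntnap2 and Sfi1. Dkk3, a secreted protein of the Dickkopf family, had 17.0 and 19.0 CPM in wild-type, 2.51 and 2.56 in Pcgf2/4-/- (log2 fold change -2.81, SE 0.27, edgeR adjusted p = 6.14e-05) and 3.20 and 2.26 in Pcgf1/2/4-/- (-2.73, SE 0.33, edgeR adjusted p = 0.00012). Cntnap2, a neurexin-family gene, had 23.8 and 21.5 CPM in wild-type, 3.94 and 1.60 in Pcgf1-/- (-2.87, edgeR adjusted p = 2.87e-05) and 3.74 and 4.97 in Pcgf1/2/4-/- (-2.36, edgeR adjusted p = 0.00052). Both also moved the other way. Dkk3 rose to 34.2 and 33.4 CPM in Pcgf3/5-/- and to 32.9 and 29.1 in Pcgf3/5/6-/- (edgeR adjusted p = 0.00958 and 0.00773), and Cntnap2 to 56.15 and 54.2 in Pcgf6-/- and to 46.8 and 39.5 in Pcgf3/5/6-/- (edgeR adjusted p = 0.00075 and 0.00722). The groups did not overlap in any of these comparisons, which the choice of named genes required for the falls. Sfi1, which encodes a centrosomal protein, had 45.2 and 47.4 CPM in wild-type, 14.4 and 11.2 in Pcgf1-/- (-1.82) and 12.8 and 12.3 in Pcgf3/5-/- (-1.88, edgeR). Tubb3, the neuronal β-tubulin gene, fell from 80.9 and 83.5 to 8.38 and 14.7 CPM in Pcgf2/4-/- (-2.70, edgeR adjusted p = 1.11e-05). Tubb3 is itself 1 of the 4 neural markers, which summed to 10.1 to 15.8 CPM there and to 87.2 to 87.6 in wild-type. The monocarboxylate transporter gene Slc16a3 fell from 242 and 243 to 55.3 and 46.4 CPM in Pcgf1-/- (-2.25, edgeR adjusted p = 1.90e-05), where Pdzd7 rose from 1.43 and 0.985 to 11.9 and 11.4 (3.26, edgeR adjusted p = 0.00011). In Pcgf1/2/4-/- the transcription factor gene Bach2 fell from 23.1 and 21.7 to 2.14 and 3.61 CPM (-2.92, edgeR adjusted p = 0.00015), and the membrane glycoprotein gene Cd200 rose from 7.28 and 8.58 to 37.9 and 40.6 (2.31, edgeR adjusted p = 0.00012). In Pcgf3/5/6-/- Tubb3 and Slc16a3 rose instead (1.05 and 0.72, edgeR adjusted p = 0.00040 and 0.0186), and Cd200 fell (-1.01, edgeR adjusted p = 0.0312).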

How the data were processed

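ChIP-seq and RNA-seq of mouse embryonic stem cells were analysed from deposited files. Each of 80 peak lists held, per the submitters' processing notes, MACS2 2.1.1 peaks on build mm9, with the authors' fold enrichment (a ratio) and −log10 p and q values; fold values were used within a list only. Bowtie 1.2.2, TopHat2 2.1.1 and HTSeq 0.7.2 are named in those notes without a stated role. The authors deposited whole-number counts per gene symbol without normalization; the use of strand is not given in the sources used here. Their tables of comparisons were not used. Chromosome names and ends fitted NCBIM37 (mm9), so genome and GENCODE M1 annotation of that build were used, with starts of protein-coding and long noncoding genes.

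Overlap required 1 bp. Shares carry 95% Wilson intervals, differences Newcombe intervals, and weighted differences stratified normal intervals over 5 height quintiles, all for counting only. Counts were tested with edgeR 4.0.16 (R 4.3.3; filterByExpr, TMM, quasi-likelihood, Benjamini-Hochberg over 15464 genes, threshold 0.05) in 1 fit of 7 groups with 6 residual degrees of freedom. The fit was laid down for 14 libraries; the wild-type pair was then summed to 1 sample because it differed by less than sampling noise, and the 14-library fit is an alternative. On simulated counts the script was tested before use. Alternatives included DESeq2 1.42.0. CPM are per TMM-adjusted library size, each SE is the log2 fold change divided by the root of F, and intervals cover counting error only.

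Named regions are the 10 tallest, the 5 tallest with H3K27me3 and SUZ12 in all 6 lines and the 5 tallest with H3K4me3 without H3K27me3, at most 1 per nearest gene. Named genes are those nearest to them and, per knockout, the 3 raised and 3 lowered member genes of largest change whose log2 CPM (prior count 2) averaged 2 or more and whose knockout libraries both lay outside the wild-type range; not all are printed. Genes given as examples of a list were chosen after their values were seen. The regions and lists were chosen with earlier results of these data known.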

Additional observations from a re-analysis of the deposited data

How the results depend on the processing

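The number of SUZ12 peaks without RING1B was 592 when no Ring1b list might hold a peak there and 59 among SUZ12 peaks with a −log10 q of at least 20, in place of 1356. A −log10 q minimum of 5 removed no peak from the Suz12 and Ring1b lists and could not change it. The difference in SUZ12 persistence (with minus without RING1B) in Pcgf2/4-/- went from 14.1 to 0.60 points at the height quintiles of the regions and to -0.0037 with 500 bp windows as well, and in Pcgf1/2/4-/- from 37.4 to 2.83 points with both, where the interval (-0.754 to 6.42) includes 0. With knockout peaks at a −log10 q of at least 20 the regions were called again at 3.91% in Pcgf1-/-, 31.5% in Pcgf2/4-/-, 9.66% in Pcgf3/5-/-, 13.8% in Pcgf6-/-, 3.47% in Pcgf1/2/4-/- and 4.42% in Pcgf3/5/6-/-, and the differences were 53.3, 43.5, 56.96, 48.3, 28.35 and 41.9 points. For H3K4me3 the difference of 13.1 points went to 0.81 when 50% of the peak had to be covered, 1.60 at the height quintiles and 0.29 with windows as well. H3K36me3 turned from -0.10 to 0.47 and 0.49 under the last 2 settings, PCGF3 went from 0.25 to 0.72 and 0.75 and then excluded 0, and with 50% of the peak covered WDR5 went to 0.32 and USF1 to -0.60 points. Weighting by quintile for lists other than Suz12, its combination with 500 bp windows and the −log10 q of 20 were chosen after seeing the data. Of the tested member genes, the share called was 31.0% in Pcgf1-/-, 21.9% in Pcgf2/4-/-, 21.4% in Pcgf3/5-/-, 52.0% in Pcgf6-/-, 23.9% in Pcgf1/2/4-/- and 61.2% in Pcgf3/5/6-/-. With only the compared groups in the fit it was 19.1%, 10% and 35% in the first 3 and 50.9% in Pcgf1/2/4-/-. Leaving out 1 library gave 18.0 to 26.4% in Pcgf1-/-, 16.9 to 24.5% in Pcgf2/4-/-, 8.26 to 17.1% in Pcgf3/5-/-, 39 to 46.1% in Pcgf6-/-, 8.30 to 20.4% in Pcgf1/2/4-/- and 46.9 to 56.6% in Pcgf3/5/6-/-. An arm left with 1 library is assumed to vary like the others. The cause of these moves was not tested. The 14-library fit, which was the design first laid down and became the alternative once the wild-type pair was summed, gave 41.7%, 31.7%, 31.0%, 57.4%, 29.7% and 65.4% of member genes in the same order, and DESeq2 24.3%, 15.8%, 16.1%, 44.6%, 19.6% and 52.9%. Over all genes in the 14-library fit, 13.9%, 8.10%, 11.1%, 27.85%, 14.4% and 28.0% rose. The shares that fell were 18.45%, 13.5%, 10.4%, 18.6%, 22.6% and 25.3%. In Pcgf1/2/4-/- 11.2% of member genes rose and 18.5% fell in that fit, both below the shares of all genes. DESeq2 called 2534, 1551, 1462, 4863, 3316 and 6043 genes over all. The replicate number does not pair the libraries (deviations correlated at -0.02 to 0.06 with wild-type), and the 14-library fit with it as a replicate block gave 38.2%, 28.6%, 28.1%, 55.6%, 28.6% and 64.3% of member genes. It called 4517, 2952, 2921, 6866, 5265 and 7931 genes over all. RLE factors moved the median of all genes in Pcgf3/5/6-/- from 0.05 to 0.12 and in Pcgf1/2/4-/- from -0.11 to -0.03, and the raised share of called member genes by less than 10 percentage points.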
